A study of Mus musculus with 24 samples.

Results

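The 4 genes of the platelet receptor GPIb-IX-V (Gp1ba, Gp1bb, Gp9 and Gp5) and Treml1, the gene of another platelet surface protein, were followed through 24 RNA-seq libraries of sorted embryonic mouse cells. They were taken by gene name, and all 5 were found among the 29716 genes of the deposited count table. All 5 also passed the filter on low counts that kept 15618 genes for testing. The cells came from C57BL/6J embryos at E10.5, in mid-gestation. Embryos received either an antibody against Dll4, a ligand of Notch receptors on endothelium, or anti-human IgG as the control, by injection into the heart. They then stayed for 5 h at 37 °C and 5% CO2 in a culture medium with hydrocortisone (10 µM), IL-3 (10 ng/ml) and their antibody (5 µg/ml), so that the control groups carry the culture and its additives too. Cells positive for the endothelial and blood cell protein CD31 were sorted into Kit+ CD45+, Kit+ CD45- and Kit- CD41+ CD45- populations, each with 4 libraries per antibody, which gave 6 groups. The series asks which genes differ with the anti-Dll4 antibody in each population. The labels do not say how many embryos stand behind a library or whether replicates came from separate litters, so every p-value reflects only how far these libraries spread, which may be technical.

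GPIb-IX-V sits on megakaryocytes and platelets and holds platelets to the wall of a damaged vessel. Gp1ba encodes the chain that binds von Willebrand factor and thrombin, Gp1bb the chain joined to it by a disulfide bond, Gp9 a small subunit needed for the complex to reach the surface, and Gp5 a loosely attached subunit that thrombin cleaves. Treml1 encodes a receptor of the TREM family that is stored in platelet granules, moves to the surface on activation and binds fibrinogen. All 5 genes are textbook markers of the megakaryocyte lineage, in which GATA and ETS family transcription factors are active.

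The DNA just upstream of the genes is shown because the members moved together across the groups. Each sequence is the 250 bases before the RefSeq start on GRCm38.p6, read 5′ to 3′ in the direction of the gene, and no exon in GENCODE M21 overlaps these 4 windows. Capitals mark the letters GATAA, which are part of the usual GATA motif, and AGGAA, part of the usual ETS motif, or their complements TTATC and TTCCT on the other strand. The windows are chr11:70638872-70639121 (+) for Gp1ba, chr6:87777820-87778069 (+) for Gp9, chr16:30310782-30311031 (-) for Gp5 and chr17:48359666-48359915 (+) for Treml1.
Gp1ba: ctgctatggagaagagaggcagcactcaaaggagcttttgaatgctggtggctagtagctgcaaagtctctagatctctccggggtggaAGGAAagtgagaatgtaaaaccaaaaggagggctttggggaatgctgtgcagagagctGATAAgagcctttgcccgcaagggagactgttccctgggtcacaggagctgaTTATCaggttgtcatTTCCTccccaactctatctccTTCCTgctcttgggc
Gp9: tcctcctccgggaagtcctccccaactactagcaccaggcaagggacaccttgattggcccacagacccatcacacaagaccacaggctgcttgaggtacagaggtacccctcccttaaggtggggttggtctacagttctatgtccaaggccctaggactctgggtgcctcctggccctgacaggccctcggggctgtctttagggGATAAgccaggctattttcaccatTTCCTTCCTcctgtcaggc
Gp5: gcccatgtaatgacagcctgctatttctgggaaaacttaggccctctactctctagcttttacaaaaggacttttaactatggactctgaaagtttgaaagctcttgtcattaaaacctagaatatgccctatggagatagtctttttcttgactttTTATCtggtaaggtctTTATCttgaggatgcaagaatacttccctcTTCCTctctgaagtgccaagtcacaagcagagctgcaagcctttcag
Treml1: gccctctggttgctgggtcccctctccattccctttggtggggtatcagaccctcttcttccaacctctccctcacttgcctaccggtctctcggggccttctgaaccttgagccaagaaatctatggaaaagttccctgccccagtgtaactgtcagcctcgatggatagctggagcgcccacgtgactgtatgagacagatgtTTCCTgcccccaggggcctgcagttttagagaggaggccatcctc
In Gp1ba, GATAA matched 103 to 99 and, on the other strand, 51 to 47 bases before the start, and AGGAA matched at 3 places. Gp9 held 1 GATAA match, 43 to 39 bases before the start, followed by 2 overlapping matches to AGGAA on the other strand. Gp5 held 2 GATAA matches and 1 AGGAA match, all on the other strand. The Treml1 window held AGGAA on the other strand, 45 to 41 bases before the start, and no GATAA letters. The window of Gp1bb (chr16:18622404-18622653) overlaps an exon of its neighbour Sept5 and is not printed. It held neither set of letters. GATAA was present in 3 of the 5 windows and in 22.6% of all 32851 RefSeq windows of this length, AGGAA in 4 of 5 and 60.3%, and both in 3 of 5 and 14.4%. A match describes letters only, and its absence refers only to this window.

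On mm10, as the authors' table places them, Gp1ba (ENSMUSG00000050675.7) lies at chr11:70639122-70642036 on the plus strand and Gp9 (ENSMUSG00000030054.4) at chr6:87778072-87779768 on the plus strand. Gp5 (ENSMUSG00000047953.6) lies at chr16:30307686-30310779 on the minus strand, and Treml1 (ENSMUSG00000023993.6) at chr17:48359916-48367174 on the plus strand. Gp1bb (ENSMUSG00000050761.3) lies at chr16:18620319-18622403 on the minus strand and shares 593 bases with Sept5, which runs in the same direction. Over the 24 libraries Sept5 had 403 counts and Gp1bb 119405. How the counting treated reads in the shared stretch is not given in the sources used here.

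Libraries held 8718351 to 11379830 counts. Values are CPM, counts relative to library size after TMM scaling, and each mean carries its SD over 4 libraries. The 3 libraries that follow stood apart from their groups. Kit+ CD45- IgG replicate 1 had the highest summed level of 8 endothelial markers in its group (1529 CPM, against 717.5 to 797.7 in the others) and the lowest share of globin counts (16.85%, against 27.37 to 33.71%). Kit+ CD45+ IgG replicate 1 had 111.1 CPM summed over 7 macrophage markers, against 1226 to 1797 in the other 3. Kit+ CD45- anti-Dll4 replicate 4 had the highest share of globin counts in its group (49.32%, against 22.08 to 36.2%), the lowest TMM factor (0.525, against 0.747 to 1.04) and the fewest genes detected of all 24 libraries (18063). Comparisons between antibodies and between populations, shares and correlations are given also without these libraries, and for the shares and correlations that step was added after the data were seen. The sorting gate was visible in transcripts: Kit- CD41+ CD45- cells under IgG had 539.8 ± 162.5 CPM of Itga2b, which encodes CD41, while Ptprc, which encodes CD45, had no count there.

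All 5 genes were high in Kit- CD41+ CD45- cells, 9.41 to 11.1-fold lower in Kit+ CD45- cells under IgG and lowest by mean in Kit+ CD45+ cells. For every member the order of the 6 group means was the same: Kit- CD41+ CD45- IgG, Kit- CD41+ CD45- anti-Dll4, Kit+ CD45- IgG, Kit+ CD45- anti-Dll4, Kit+ CD45+ anti-Dll4, Kit+ CD45+ IgG. The 3 pairs of neighbours that share a population did not pass the test between antibodies for any member. Kit- CD41+ CD45- cells under anti-Dll4 and Kit+ CD45- cells under IgG did not overlap for any member. That pair differs in antibody as well as population, was not tested, and its share over all genes was not counted. With the antibody alike, 16.1% (IgG) and 16% (anti-Dll4) of all genes were lower without overlap in Kit+ CD45- cells. The remaining pair was Kit+ CD45- and Kit+ CD45+ cells under anti-Dll4. There Gp1ba and Gp5 did not pass the test between populations, and the groups overlapped for Gp1ba, Gp1bb and Gp5. These are bulk libraries, in which fewer cells of a type and less RNA per cell cannot be told apart.

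**Figure D1:**
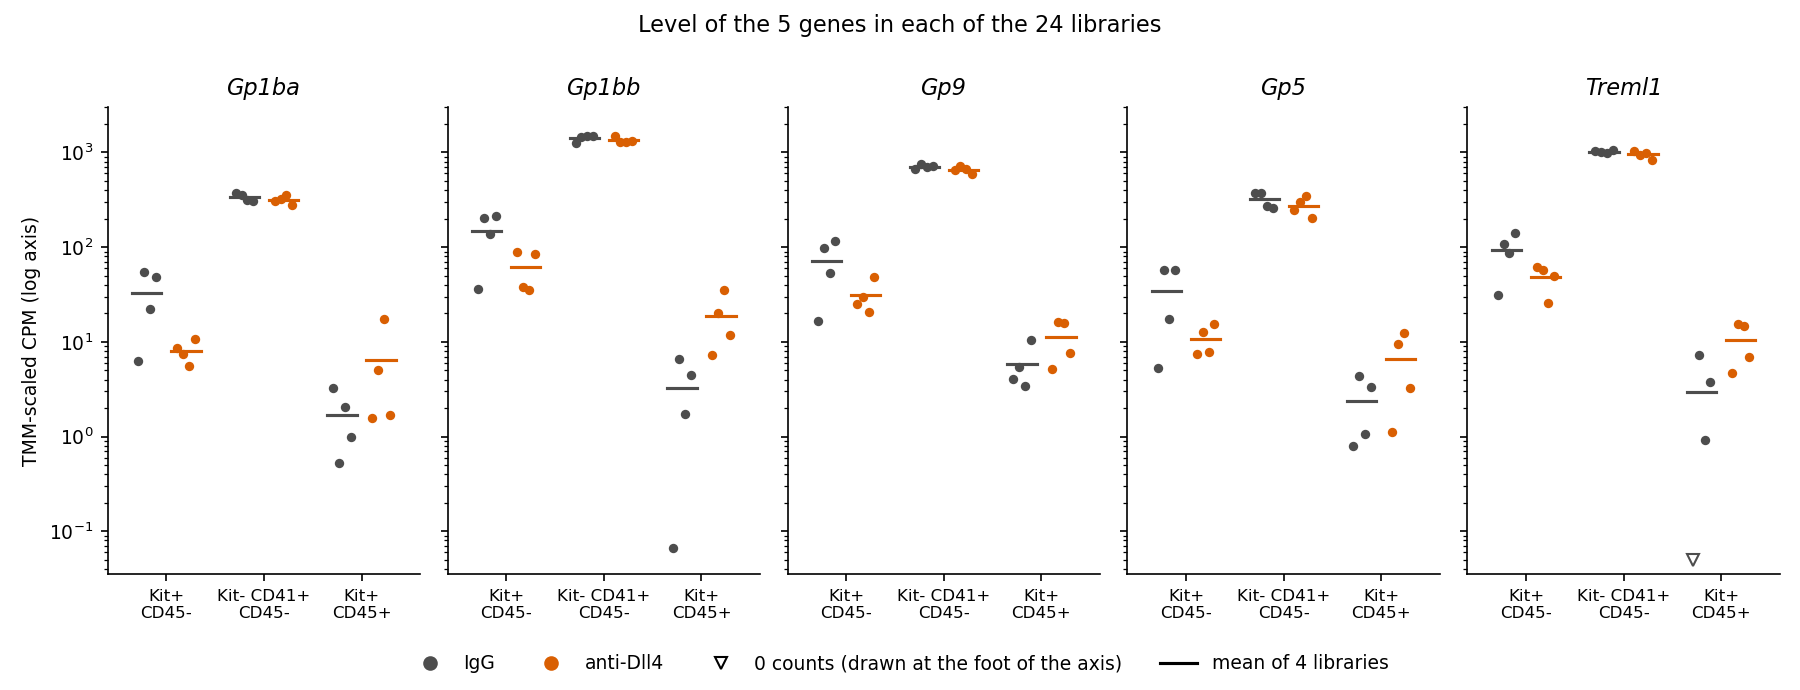
Level of each gene in every library, as TMM-scaled CPM on a log axis, by sorted population and antibody (grey IgG, orange anti-Dll4; bars are means of 4 libraries). All Kit- CD41+ CD45- libraries lie above all others for each gene; the triangle marks Treml1 at 0 counts in Kit+ CD45+ IgG replicate 1.

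Gp1ba, the ligand-binding chain, had values of 369.8, 355.3, 313.6 and 309.2 CPM in Kit- CD41+ CD45- IgG replicates 1 to 4, and at 306.7, 321.2, 358.6 and 276.8 under anti-Dll4. In Kit+ CD45- cells it stood at 6.27, 54.8, 22.2 and 48.7 CPM under IgG and at 8.61, 7.43, 5.50 and 10.7 under anti-Dll4. Kit+ CD45- IgG replicate 1 was thus inside the anti-Dll4 range, and the other 3 IgG libraries were above it. In Kit+ CD45+ cells Gp1ba stood at 3.26, 0.530, 2.06 and 0.986 CPM under IgG and at 1.58, 5.04, 17.4 and 1.68 under anti-Dll4. There anti-Dll4 replicate 3 was the one high library, and the groups overlapped.

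Gp1bb, the disulfide-linked chain, had the highest mean CPM of the 5 in every group except Kit+ CD45+ IgG, where Gp9 was above it (5.81 against 3.22 CPM). Its values were 1270, 1470, 1502 and 1502 CPM in Kit- CD41+ CD45- cells under IgG and at 1496, 1280, 1292 and 1321 under anti-Dll4. Kit+ CD45- cells had 36.2, 203.0, 139.0 and 213.6 CPM under IgG and 89.9, 38.3, 35.1 and 85.3 under anti-Dll4. Again replicate 1 was the low IgG library and lay within the anti-Dll4 values. Kit+ CD45+ cells had 0.0665, 6.58, 1.75 and 4.48 CPM under IgG, the first of these from 1 count, and 7.26, 20.0, 35.4 and 11.7 under anti-Dll4. Every anti-Dll4 library was above every IgG library, which held for Gp1bb alone among the members in this population.

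Gp9, the small subunit, had values of 675.2, 748.9, 695.7 and 723.9 CPM in Kit- CD41+ CD45- cells under IgG and at 657.7, 723.5, 667.1 and 588.3 under anti-Dll4. Kit+ CD45- cells had 16.8, 99.1, 52.9 and 116.3 CPM under IgG and 25.3, 29.8, 20.6 and 48.1 under anti-Dll4, with IgG replicate 1 below all anti-Dll4 libraries. Kit+ CD45+ cells had 4.06, 5.37, 3.43 and 10.4 CPM under IgG and 5.12, 16.3, 15.8 and 7.58 under anti-Dll4. The groups overlapped through IgG replicates 2 and 4, the highest of their group.

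Gp5, the subunit cleaved by thrombin, had values of 376.6, 369.0, 275.0 and 261.6 CPM in Kit- CD41+ CD45- cells under IgG and at 249.7, 298.3, 348.4 and 205.4 under anti-Dll4. Kit+ CD45- cells had 5.35, 56.9, 17.6 and 57.4 CPM under IgG and 7.38, 12.8, 7.90 and 15.3 under anti-Dll4, where only IgG replicate 1 was not above the anti-Dll4 libraries. Kit+ CD45+ cells had 0.798, 4.39, 1.07 and 3.32 CPM under IgG and 1.12, 9.45, 12.5 and 3.30 under anti-Dll4. Anti-Dll4 replicates 2 and 3 were the high libraries, and the groups overlapped.

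Treml1, the TREM family member, had values of 1032, 1011, 989.8 and 1059 CPM in Kit- CD41+ CD45- cells under IgG and at 1047, 946.3, 987.6 and 836.1 under anti-Dll4. Kit+ CD45- cells had 31.0, 108.9, 87.5 and 141.7 CPM under IgG and 61.3, 56.9, 26.0 and 49.8 under anti-Dll4, and once more only replicate 1 of IgG fell among the anti-Dll4 values. Kit+ CD45+ cells had 0, 7.27, 0.914 and 3.76 CPM under IgG and 4.66, 15.5, 14.8 and 6.95 under anti-Dll4. The library at 0 counts allows up to 0.1996 CPM, the level of 3 counts at its depth, for counting error only, since PCR-amplified reads are not independent molecules. The groups overlapped through IgG replicate 2.

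Per kilobase of exon in GENCODE M21, Gp9 (881 bases) led the members in Kit- CD41+ CD45- cells under IgG with a level of 806.9 ± 36.6 CPM per kb. Treml1 followed at 729.7 ± 21.1 CPM per kb and Gp1bb at 688.1 ± 53.4, and Gp1ba (124.0 ± 11.1) and Gp5 (145.9 ± 27.6) were the lowest. With only the 1494 exon bases outside Sept5 as its length, Gp1bb would stand at 961.2 ± 74.6 CPM per kb, so its place in this order depends on how shared reads were counted. Gp1ba and Gp5 differed by less than the SD of Gp5.

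The comparison of populations under IgG asked where the complex is transcribed without the blocking antibody. All 5 members were lower in Kit+ CD45- cells than in Kit- CD41+ CD45- cells, with log2 fold changes of -3.47 to -3.23 and no overlap of groups, read from edgeR's quasi-likelihood test with Benjamini-Hochberg adjustment. The group means were 33.0 ± 22.8 against 337.0 ± 30.2 CPM for Gp1ba, 148.0 ± 81.4 against 1436 ± 111.5 for Gp1bb and 71.3 ± 45.1 against 710.9 ± 32.3 for Gp9. Of all genes tested, 13.8% were called lower in this comparison, and 16.1% were lower without overlap. Treml1 had the largest difference, with a log2 fold change of -3.47 (SE 0.56, adjusted p = 4.28e-05), and Gp5 the smallest, with -3.23 (SE 0.59, adjusted p = 1.81e-04). The smallest adjusted p, 3.84e-06, belonged to Gp9, which had the smallest SE (0.44). Without Kit+ CD45- IgG replicate 1, log2 fold changes were -3.18 for Treml1, -3.01 for Gp1ba, -2.99 for Gp9, -2.96 for Gp1bb and -2.87 for Gp5, with 5 called. With the globin share as a covariate 4 were called, and Gp5 was not (-2.95, SE 1.12, adjusted p = 0.0803).

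Kit+ CD45+ cells were lower again than Kit+ CD45- cells under IgG for all 5 members, where 9.18% of genes were called lower. Log2 fold changes were -5.54 (SE 0.67) for Gp1bb, -4.97 (SE 0.63) for Treml1, -4.22 (SE 0.66) for Gp1ba, -3.85 (SE 0.66) for Gp5 and -3.63 (SE 0.47) for Gp9, and no groups overlapped, as for 8.79% of genes. Against Kit- CD41+ CD45- cells the same cells were lower for all 5 members, with log2 fold changes of -8.82 to -6.95, no overlap (19% of genes lower without overlap) and 17.5% of genes called lower. Mean levels in Kit+ CD45+ cells under IgG were 1.71 ± 1.22 CPM for Gp1ba, 3.22 ± 2.89 for Gp1bb, 5.81 ± 3.16 for Gp9, 2.39 ± 1.75 for Gp5 and 2.99 ± 3.27 for Treml1. Red cell transcripts moved with these comparisons: globin genes took 16.85 to 33.71% of counts in Kit+ CD45- cells under IgG, 4.18 to 9.79% in Kit- CD41+ CD45- cells and at most 0.0219% in Kit+ CD45+ cells, and their part in the result was not tested beyond a fit with the globin share as a covariate. That fit called 0 of 5 members in each comparison of Kit+ CD45+ cells with another population. Under IgG it gave the members a median of -5.23 against Kit+ CD45- cells (-4.22 without the covariate), and SEs of 3.32 to 4.85 where they had been 0.47 to 0.67. Against Kit- CD41+ CD45- cells the median was -8.18 with the covariate and -7.58 without.

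Leaving out a library that stood apart kept all 5 called in these comparisons under IgG. Without Kit+ CD45- IgG replicate 1, Kit+ CD45+ against Kit+ CD45- cells gave -4.57 for Gp1ba, -5.87 for Gp1bb, -3.96 for Gp9, -4.21 for Gp5 and -5.26 for Treml1. Without Kit+ CD45+ IgG replicate 1 the same comparison gave -4.76, -5.11, -3.48, -3.54 and -4.52 in that order of genes. The comparison with Kit- CD41+ CD45- cells then gave -8.12, -8.39, -6.80, -6.77 and -8.00.

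Under anti-Dll4 the same pair of Kit+ populations gave values nearer 0 for all 5 members, a change that is the difference of effects tested further on, where no member was called. Kit+ CD45+ cells were lower than Kit+ CD45- cells for 3 of 5, with 12.6% of genes called lower: Treml1 (log2 fold change -2.21, SE 0.55, adjusted p = 0.00416), Gp9 (-1.45, SE 0.44, adjusted p = 0.0145) and Gp1bb (-1.73, SE 0.56, adjusted p = 0.0215). Gp5 (-0.69, SE 0.61, 95% interval -1.96 to 0.57) and Gp1ba (-0.31, SE 0.61, 95% interval -1.57 to 0.95) did not pass. Of the members, Gp9 and Treml1 had groups that did not overlap (9.36% of genes lower without overlap); for Gp1bb, the 35.4 CPM of Kit+ CD45+ replicate 3 exceeded the 35.1 CPM of Kit+ CD45- replicate 3. The count fell to 1 of 5, Treml1, without replicate 4 of either group. Without replicate 4 of Kit+ CD45- cells, Gp9 gave -1.18 (adjusted p = 0.0694) and Gp1bb -1.56 (adjusted p = 0.0692). Both Kit+ populations remained below Kit- CD41+ CD45- cells for all 5 members. Log2 fold changes were -5.32 to -4.30 for Kit+ CD45- cells, where 15.2% of genes were called lower and 16% were lower without overlap, and -6.51 to -5.38 for Kit+ CD45+ cells, where these shares were 17.3% and 17.6%. Without Kit+ CD45- anti-Dll4 replicate 4 the values for Kit+ CD45- cells ran from -5.48 (Gp1ba) to -4.33 (Treml1), with all 5 called.

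In Kit+ CD45- cells the question was whether blocking Dll4 moves these genes. All 5 members had lower means under anti-Dll4, and 0 of 5 passed the adjusted threshold. Gp1ba had the largest difference, at 8.06 ± 2.18 against 33.0 ± 22.8 CPM (log2 fold change -2.05, SE 0.59, adjusted p = 0.235). Gp5 stood at 10.9 ± 3.86 against 34.3 ± 26.8 CPM (log2 fold change -1.67, SE 0.59, adjusted p = 0.341) and Gp9 at 30.9 ± 12.04 against 71.3 ± 45.1 (-1.21, SE 0.42, adjusted p = 0.334). Gp1bb gave -1.26 (SE 0.54, adjusted p = 0.412) and Treml1 -0.93 (SE 0.52, adjusted p = 0.493).

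The same test called 0% of all 15618 genes in this comparison, and 1733 of them (11.1%) had an unadjusted p under 0.05, among them 4 of the 5 members, all but Treml1. DESeq2 called 79 genes and no member, and limma-voom called 0. Replicate 1 was the lowest IgG library for all 5 members. Without it the log2 fold changes were -2.41 for Gp1ba, -2.04 for Gp5, -1.59 for Gp1bb, -1.55 for Gp9 and -1.22 for Treml1, with 0 members called and adjusted p from 0.127 for Gp9 to 0.747 for Treml1. With all 6 libraries numbered 1 left out, Gp1bb was called (-1.83, SE 0.38, adjusted p = 0.0394). Without anti-Dll4 replicate 4 they were -2.20 for Gp1ba, -1.86 for Gp5, -1.49 for Gp9, -1.44 for Gp1bb and -0.94 for Treml1, with 0 called and adjusted p from 0.550 to 0.825. Megakaryocyte markers that are not members moved alongside: their summed level over 8 genes, among them Pf4 and Itga2b, was 725.3, 2867, 2390 and 3300 CPM under IgG and 1501, 508.5, 478.1 and 911.9 under anti-Dll4. None of the 8 was at 0 in either group. The 8 endothelial markers summed to 1529, 717.5, 797.7 and 784.8 CPM under IgG and to 734.1, 615.3, 473.9 and 368.2 under anti-Dll4. Erythroid markers had medians of 308300 and 442300 CPM, with ranges of 145700 to 411300 and 204300 to 894900. The part of these markers in the members' difference was not tested.

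In Kit- CD41+ CD45- cells, where the members were highest, the antibody groups were close. Log2 fold changes ran from -0.22 (Gp5, SE 0.53) to -0.09 (Gp1bb, SE 0.52), with 0 of 5 called and adjusted p = 1 for all 5. The 95% intervals still spanned about a 2-fold change each way, for example -1.17 to 0.98 for Gp1ba and -0.94 to 0.72 for Gp9. Of all genes, 0% were called, 435 (2.79%) had an unadjusted p under 0.05, DESeq2 called 2 and limma-voom 0.

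In Kit+ CD45+ cells all 5 members had higher means under anti-Dll4, and again 0 of 5 passed the adjusted threshold. Gp1bb stood at 18.6 ± 12.4 against 3.22 ± 2.89 CPM (log2 fold change 2.55, SE 0.62, adjusted p = 0.676), the gene with the 6th smallest p of all tested. Since the members were chosen with earlier results of these data known, this rank gives no support of its own. Gp1ba stood at 6.42 ± 7.48 against 1.71 ± 1.22 CPM (1.86, SE 0.67) and Treml1 at 10.47 ± 5.48 against 2.99 ± 3.27 (1.83, SE 0.60). Gp5 gave 1.48 (SE 0.66) and Gp9 0.96 (SE 0.45), and these 4 members had an adjusted p = 1.

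In this comparison 0.0064% of genes were called, a single gene, F2rl2, and 453 (2.9%) had an unadjusted p under 0.05, all 5 members among them. Groups that did not overlap, with anti-Dll4 higher, were found for 1 member and for 0.96% of genes. The Gp1ba value rested on anti-Dll4 replicate 3: without that library it was 0.67 (SE 0.61). Without IgG replicate 1, the library with few macrophage transcripts, log2 fold changes were 2.40 for Gp1ba, 2.12 for Gp1bb, 1.39 for Treml1, 1.17 for Gp5 and 0.82 for Gp9. Summed megakaryocyte markers, F2rl2 among them, were 106.8, 344.5, 293.4 and 279.2 CPM under IgG and 373.2, 427.1, 504.6 and 486.3 under anti-Dll4. The groups did not overlap for this sum, and no marker was at 0 throughout a group. The part of these markers in the result was not tested.

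**Figure D2:**
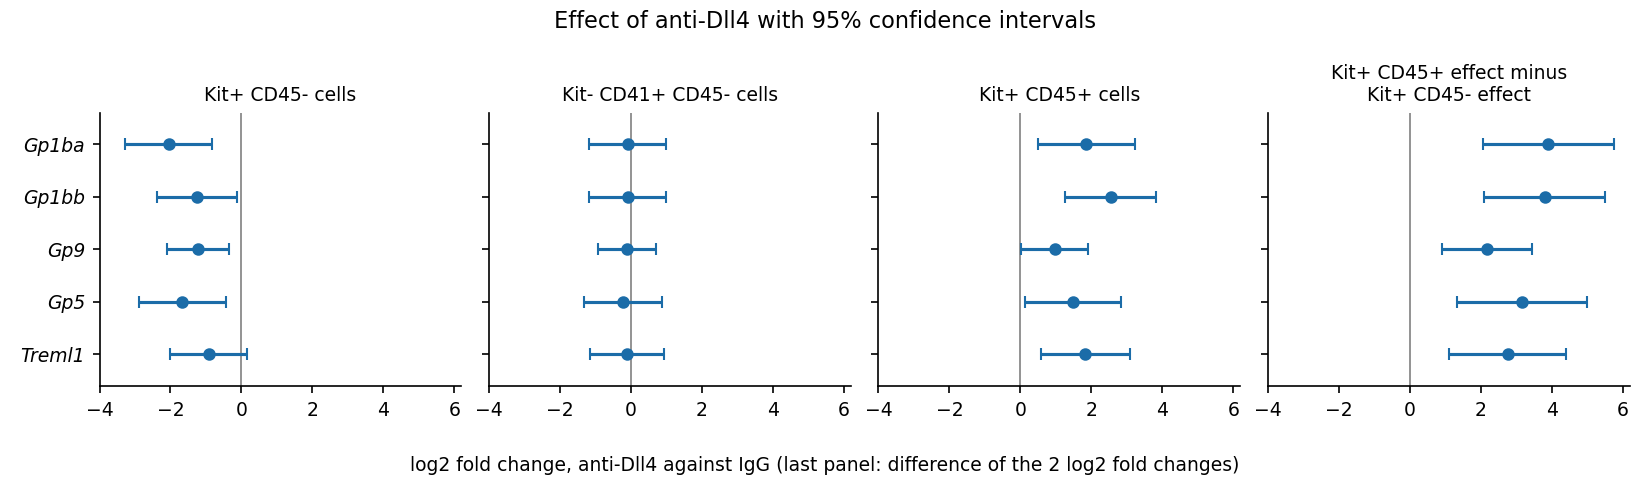
Log2 fold change of each gene under anti-Dll4 against IgG in the 3 populations, and the difference between the Kit+ CD45+ and Kit+ CD45- values, with 95% confidence intervals from the edgeR fit. Values lie below 0 in Kit+ CD45- cells, near 0 in Kit- CD41+ CD45- cells and above 0 in Kit+ CD45+ cells, and the intervals are not adjusted for the number of genes tested.

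The values had opposite signs in the Kit+ populations. A difference of effects tests whether the effects are unequal, not whether their signs are opposite. The difference taken was the Kit+ CD45+ value minus the Kit+ CD45- value. It was 3.91 for Gp1ba (SE 0.89, 95% interval 2.07 to 5.75, adjusted p = 0.215) and 3.81 for Gp1bb (SE 0.82, 95% interval 2.11 to 5.51, adjusted p = 0.180). Gp5 had 3.15 (SE 0.89, adjusted p = 0.455), Treml1 2.76 (SE 0.80, adjusted p = 0.480) and Gp9 2.18 (SE 0.62, adjusted p = 0.458). None of the 5 was called in the fit to all 24 libraries. Gp1bb and Gp1ba were the 10th and 15th of 15618 genes by p, and Gp5, Gp9 and Treml1 the 56th, 60th and 65th. The members were chosen with earlier results of these data known. Their ranks and unadjusted p, here and within each population, therefore give no support of their own.

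The test called 0.0128% of genes, 2 in all, and 924 (5.92%) had an unadjusted p under 0.05. Both called genes encode platelet surface receptors: F2rl2, a thrombin co-receptor (3.45, SE 0.50, adjusted p = 0.00636), and Gp6, the collagen receptor (6.65, SE 1.08, adjusted p = 0.0209). Gp6 was close to the counting limit in Kit+ CD45+ cells, at 0.0762 ± 0.152 CPM under IgG and 1.49 ± 1.07 under anti-Dll4. Calls of members changed with the libraries and the tool. Without Kit+ CD45- IgG replicate 1, 3 of 5 passed: Gp1bb (4.14, SE 0.77, adjusted p = 0.0367), Gp1ba (4.26, SE 0.81, adjusted p = 0.0377) and Gp9 (2.51, SE 0.50, adjusted p = 0.0497), and 14 genes were called in all. DESeq2 on all libraries called Gp1ba (adjusted p = 0.0188) and Gp1bb (adjusted p = 0.0473) among 33 genes, and limma-voom called 0 genes. Without Kit+ CD45+ IgG replicate 1, 0 members passed, and the differences were 4.45 for Gp1ba, 3.38 for Gp1bb, 2.85 for Gp5, 2.32 for Treml1 and 2.04 for Gp9. Without Kit+ CD45- anti-Dll4 replicate 4 they were 4.06 for Gp1ba, 4.00 for Gp1bb, 3.34 for Gp5, 2.77 for Treml1 and 2.46 for Gp9, again with 0 called (adjusted p from 0.309 to 0.724).

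The mix of the 5 genes was steady where they were high and least even in Kit+ CD45+ cells under IgG. In Kit- CD41+ CD45- cells under IgG, Gp1bb made up 37.5 ± 2.51% of the summed CPM of the 5, Treml1 26.7 ± 1.02%, Gp9 18.6 ± 0.363%, Gp1ba 8.81 ± 0.850% and Gp5 8.38 ± 1.60%. In Kit+ CD45- cells under IgG the shares were 39.3 ± 2.92% for Gp1bb, 26.3 ± 4.88% for Treml1 and 18.3 ± 1.56% for Gp9, each within the spread of that mix. Without replicate 1 they were 39.8 ± 3.39%, 24.3 ± 3.30% and 18.55 ± 1.815%. Kit+ CD45+ libraries under IgG departed from it. There Gp9 took 38.6 ± 12.04%, Gp1bb 16.7 ± 11.2% and Gp1ba 17.2 ± 17.6%. Without replicate 1 of that group these shares were 34.9 ± 11.7%, 21.9 ± 4.63% and 9.60 ± 11.06%. Under anti-Dll4 the Kit+ CD45+ shares were 35.3 ± 3.49% for Gp1bb, 22.8 ± 4.29% for Gp9 and 21.2 ± 3.86% for Treml1.

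Single libraries of Kit+ CD45+ cells under IgG differed in which members they held. Replicate 1 had 49 counts of Gp1ba and 61 of Gp9, with 12 of Gp5, 1 of Gp1bb and 0 of Treml1. Replicate 2 had the reverse balance, with 7 counts of Gp1ba, 96 of Treml1, 87 of Gp1bb, 71 of Gp9 and 58 of Gp5. Replicates 3 and 4 had 27 and 11 counts of Gp1ba and 12 and 42 of Treml1. Relative to 19 other platelet surface receptors, the members were also least in this group: their sum was 1.37 ± 0.706% of the receptors' sum, against 37.7 ± 1.51% in Kit- CD41+ CD45- IgG libraries and 22.1 ± 10.6% in Kit+ CD45- IgG libraries. Under anti-Dll4 these values were 3.90 ± 2.54%, 34.9 ± 3.58% and 16.6 ± 5.87%. Leaving out the library that stood apart gave 1.55 ± 0.745% for Kit+ CD45+ IgG, 26.9 ± 5.43% for Kit+ CD45- IgG and 14.05 ± 3.63% for Kit+ CD45- anti-Dll4 (n = 3 each). The receptor list shares Esam with the 8 endothelial markers. In Kit+ CD45+ cells under IgG the receptors summed to 1173 ± 162.2 CPM. Median sums there were 1404 CPM for endothelial and 286.3 CPM for megakaryocyte markers. How far receptor transcripts of other cell types set the ratio was not tested.

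**Figure D3:**
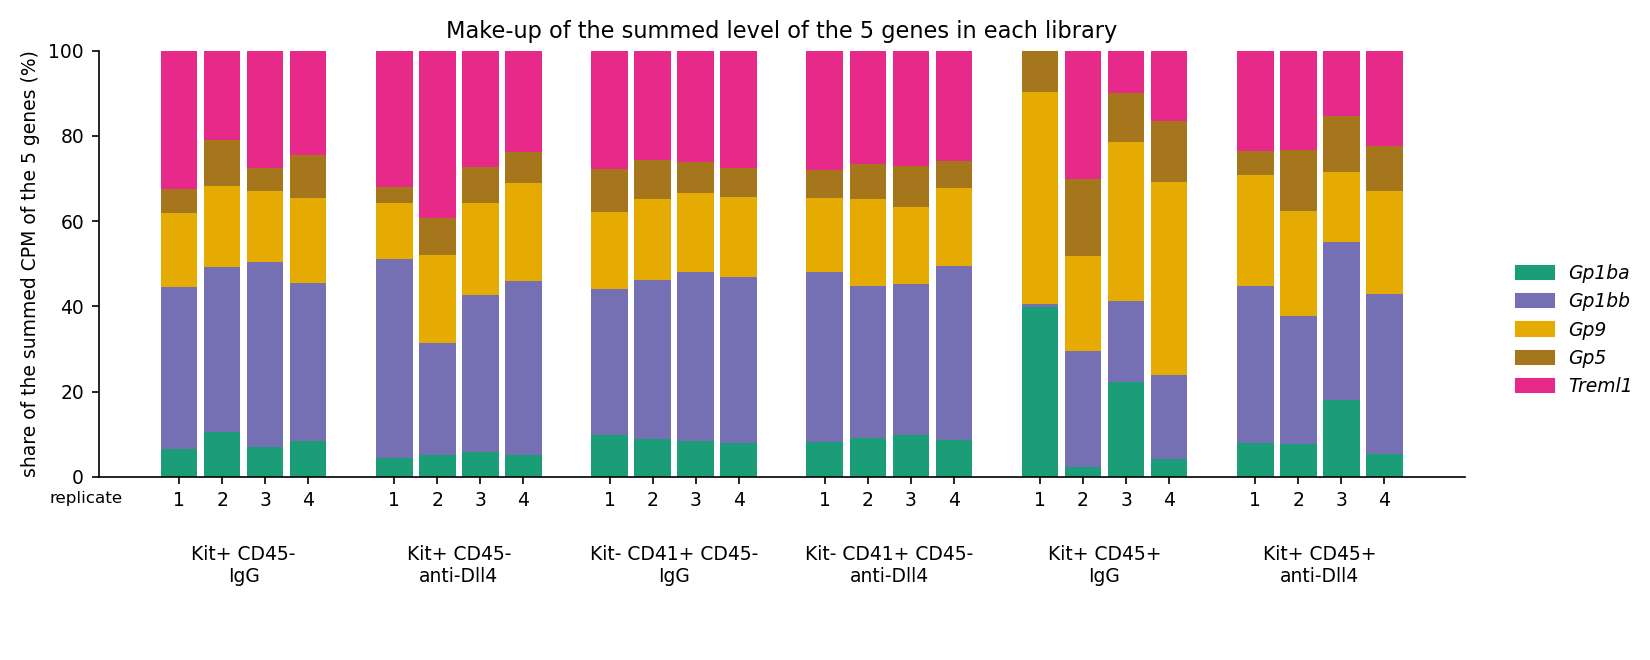
Share of each gene in the summed CPM of the 5 genes, as a percentage, for each library (bars, numbered by replicate within the 6 groups). The mix is alike in all Kit- CD41+ CD45- libraries and varies most in Kit+ CD45+ cells under IgG, where replicate 1 holds 39.8% Gp1ba and no Treml1.

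The pairs within the 5 genes are described over 24 libraries as correlations of log2 CPM, with no p, since libraries share the population structure. They ran from 0.91 (Gp1ba and Treml1) to 1.00 (Gp1bb and Treml1, 0.9952). After the group means were removed they ran from 0.05 (Gp1ba and Treml1) to 0.95 (Gp1bb and Treml1), with 0.91 for Gp9 and Gp5 and 0.22 for Gp1ba and Gp1bb. The pairs with Gp1ba changed with single libraries. Without Kit+ CD45+ IgG replicate 1, Gp1ba gave 0.67 with Gp1bb and 0.45 with Treml1. Without Kit+ CD45- IgG replicate 1 it gave -0.02 and -0.17, and with all 3 libraries that stood apart left out 0.47 and 0.22. Gp1bb and Treml1 stayed between 0.87 and 0.95 under these settings.

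Genes outside the members with the most similar pattern were found by the same correlation over the 24 libraries. For Gp1ba these were Rab27b (0.98), F10 and Capn3 (0.97 each), for Gp1bb F2rl2, Slc14a1 and Thbs1 (0.98 each), and for Gp9 Prkar2b, Tspan32 and Tuba4a (0.99 each). Gp5 was most like Mrvi1, Sardhos (0.98 each) and Itga2b (0.97), and Treml1 was most like Slc14a1 (0.99), F2rl2 and Sardh (0.98 each). For the mean of the 5 members the 10 closest were Tmem40, Rabgap1l, Ly6g6f, Thbs1, F2rl2, Sardh, Prkar2b, Pde3a, Gp6 and Mfsd2b, with correlations of 0.98 to 0.99. Removing the group means lowered the correlations of these 10 genes to between 0.64 and 0.88, or to between 0.34 and 0.84 with the 3 libraries that stood apart left out.

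Among partners of the complex, 12 genes of its ligands, cytoplasmic partners and sheddases were read from the same fit. Under IgG, 9 of 12 were called lower in Kit+ CD45- than in Kit- CD41+ CD45- cells and 0 higher. Of all genes tested, 13.8% were called lower and 14% higher there. The lower partners included Thbs1, a ligand of the complex (log2 fold change -3.15, SE 0.40), and Vwf, its main ligand (-2.23, SE 0.27). Flna, the filamin that ties the complex to actin, was lower too (-1.47, SE 0.17). The median of the 12 was -1.65, against -3.32 for the members and 0.06 for all genes tested. Between Kit+ CD45+ and Kit+ CD45- cells under IgG, where 10% of all genes were called higher and 9.18% lower, 6 of the 12 partners were higher, such as Lyn, a kinase that signals below the receptor (1.16, SE 0.20), and Adam17, the protease that sheds Gp1ba from the surface (1.03, SE 0.17), and 1 lower, Thbs1 (-3.38, SE 0.41). For anti-Dll4 against IgG, 0 of 12 were called in any population, where at most 0.0064% of all genes were called. In Kit+ CD45- cells their median was -0.50, with Vwf at -0.81 (SE 0.27, adjusted p = 0.308) and Lyn at -0.76 (SE 0.20, adjusted p = 0.195).

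A list of 12 genes held other TREM family members, their adaptor, phosphatases and the chains of fibrinogen, the ligand of Treml1. Of these, 8 were tested, and they differed among themselves. Treml4 had the same order of populations under IgG as Treml1, with log2 fold changes of -2.49 (SE 0.62, adjusted p = 0.00398) for Kit+ CD45- against Kit- CD41+ CD45- cells and -2.57 (SE 0.72, adjusted p = 0.0129) for Kit+ CD45+ against Kit+ CD45- cells. Treml2 (-1.67, SE 0.36) and Trem1 (-3.18, SE 0.84) were also lower in Kit+ CD45- than in Kit- CD41+ CD45- cells. Trem2, a lipid receptor of macrophages, stood at 30.9 ± 20.7 CPM in Kit+ CD45+ cells under IgG, 0.261 ± 0.251 in Kit+ CD45- cells and 0.864 ± 0.646 in the Kit- CD41+ CD45- population. Against Kit+ CD45- cells, its log2 fold change in Kit+ CD45+ cells under IgG was 6.73 (SE 0.96), and the shared adaptor Tyrobp was higher too (5.94, SE 0.57). Ptpn11, a phosphatase that binds the tail of Treml1, was lower in Kit+ CD45- than in Kit- CD41+ CD45- cells (-2.16, SE 0.18, adjusted p = 6.61e-09). In that comparison under IgG, 5 of the 8 were called lower, as were 13.8% of all genes tested. For anti-Dll4 against IgG, 0 of 8 were called in each population. No test of a difference between these genes and Treml1 was run.

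The antibody effect on the members was set beside that on 3 other lists. In Kit+ CD45- cells under anti-Dll4, all 19 other platelet surface receptors had a value below 0 (median -0.82), as did 17 of 18 platelet granule, cytoskeleton and signalling genes (median -0.85), with 0 called in either list. The members' median was -1.26 and that of all genes -0.03. Of 16 megakaryocyte transcription factors, 8 were below and 8 above 0, with a median of -0.06. Gp6 (-2.53, SE 0.51, adjusted p = 0.1198), Clec1b, the podoplanin receptor (-0.80, SE 0.16, adjusted p = 0.1198), and Clu (-1.11, SE 0.27, adjusted p = 0.174) had the smallest adjusted p of these lists.

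In Kit+ CD45+ cells the lists differed more in their medians: 1.83 for the members, 0.43 for the granule list (16 of 18 above 0), 0.12 for the other receptors (14 of 19 above 0) and 0.11 for the transcription factors (11 of 16 above 0), against 0 for all genes. F2rl2 was the 1 gene called, at 34.0 ± 14.2 against 6.02 ± 3.12 CPM (log2 fold change 2.51, SE 0.37, adjusted p = 0.00930). The call was lost with limma-voom, without the low count filter, with only this pair of groups in the fit, or without Kit+ CD45+ anti-Dll4 replicate 4. Tubb1, the beta tubulin of platelets, had 3.29 (SE 0.95, adjusted p = 0.915), and Gata1, which drives the lineage, 0.98 (SE 0.55, adjusted p = 1).

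For the difference of effects between the Kit+ populations, 18 of 18 granule genes (median 1.07) and 18 of 19 other receptors (median 1.13) were above 0, with 0 and 2 called. The members' median was 3.15 with 0 of 5 called, that of the transcription factors 0.35 with 0 of 16 called, and that of all genes 0.04. Fli1, an ETS factor of the lineage, had 0.94 (SE 0.30, adjusted p = 0.567).

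**Figure D4:**
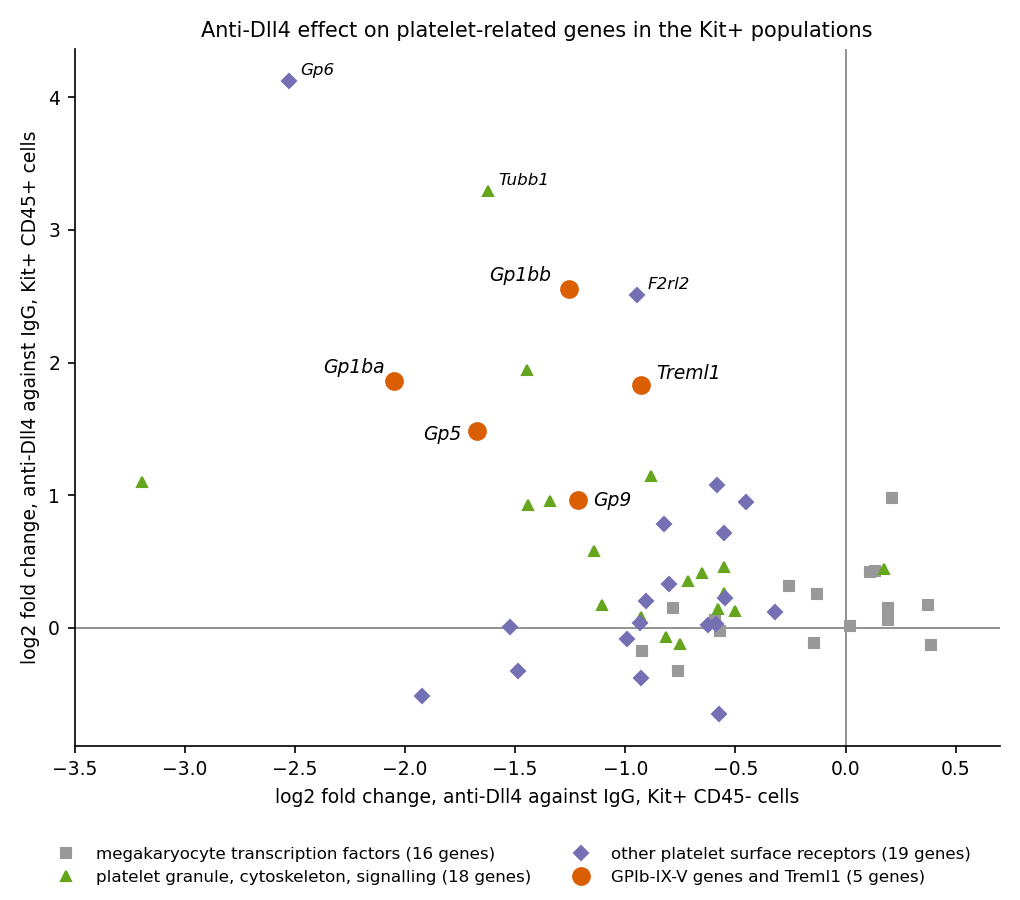
Log2 fold change under anti-Dll4 against IgG in Kit+ CD45- cells (horizontal) and in Kit+ CD45+ cells (vertical) for the 5 genes (orange) and 3 lists of platelet-related genes. The 5 genes lie in the upper left, as do Gp6, F2rl2 and Tubb1, and the transcription factors lie closer to 0.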

How the data were processed

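RNA-seq was measured in 24 libraries, 4 for each of 3 sorted populations under 2 antibodies. The submitters' processing notes name build mm10 and the tools STAR, HTSeq, DESeq2, FastQC and CASAVA 1.4, with no role for each and no annotation release. The labels' protocols give amplification of the cDNA by long-distance PCR. The deposited table of raw counts per gene (29716 genes, no normalization by the authors) was used for all tests. The authors' deposited log2 table, log2 of the count over a size factor plus 1, gave gene names and positions; 1 column that matches none of the 24 samples was left out.

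Counts were fitted with edgeR 4.0.16 (R 4.3.3): TMM, filterByExpr by group (15618 genes kept), robust quasi-likelihood F-test, 1 coefficient per group over all 24 libraries, 18 residual degrees of freedom, Benjamini-Hochberg adjustment within each comparison and a threshold of 0.05. SE is the size of the log2 fold change over the square root of F, and intervals cover 95%. The script was tested on simulated data. Alternatives were DESeq2 1.42.0, limma-voom (limma 3.58.1), other scalings and filters, a globin covariate, a replicate block and libraries left out. The members and lists were chosen with earlier results of these data known. Named in every comparison are the 5 members, and of each list up to 4 genes with the smallest adjusted p; genes of like pattern are the 3 per member and 10 for the mean with the highest Pearson correlation of log2 CPM (prior count 2). Markers of other cell types are given as summed CPM where they move with a result. Exon lengths came from GENCODE M21 and promoter windows from RefSeq on GRCm38.p6, where all 5 members matched by symbol.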

Additional observations from a re-analysis of the deposited data

Results flagged for a closer look

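In the Kit- CD41+ CD45- IgG group, 1 library was far from the others for Gp1bb: replicate 1 had 1270 CPM, and the other 3 had 1470 to 1502 CPM. The gap took 0.861 of the group's range, above Dixon's 95% critical value for 4 libraries. Chance flags about 1 in 20 groups, and 30 were examined for the 5 members.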

How the results depend on the processing

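Of 975 values of single members under the alternatives, 935 kept their direction and their side of the threshold, and 7 reversed. With the direction kept, 24 lost a call and 9 gained one. Among the reversed values, Gp1ba (IgG) and Gp9 (anti-Dll4) for Kit+ CD45+ against Kit+ CD45- cells also lost a call. With all 6 libraries numbered 1 left out, 1 member was called for anti-Dll4 in Kit+ CD45- cells (Gp1bb) and 3 for the difference of effects between the Kit+ populations (Gp1ba, Gp1bb and Treml1). DESeq2 called 2 for that difference. Leaving out 1 library at a time gave 0 to 3 members called for the difference, with 3 without Kit+ CD45- IgG replicate 1, and 1 to 3 for Kit+ CD45+ against Kit+ CD45- cells under anti-Dll4, with 1 without replicate 4 of either group. In the latter comparison Gp1bb was not called without the low count filter (adjusted p = 0.0726). With the globin share as a covariate, which nearly separates the populations by itself, 0 members were called in the comparisons of Kit+ CD45+ cells with Kit- CD41+ CD45- cells and with Kit+ CD45- cells, for either antibody, and Gp5 was lost for Kit+ CD45- against Kit- CD41+ CD45- cells under IgG. Medians of the members with it were -5.23 and -8.18 under IgG (-4.22 and -7.58 without) and -2.09 and -6.58 under anti-Dll4 (-1.45 and -5.87 without) for Kit+ CD45+ against Kit+ CD45- and against Kit- CD41+ CD45- cells, with larger SEs.

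The reversed values were mostly near 0 or came from the globin covariate, and the cause was not tested. With that covariate Treml1 gave 0.078 for anti-Dll4 in Kit- CD41+ CD45- cells, Gp1ba gave 2.00 (IgG) and 6.18 (anti-Dll4) for Kit+ CD45+ against Kit+ CD45- cells, and Gp9 gave 1.12 under anti-Dll4. Gp1ba in the anti-Dll4 comparison also gave 0.053 with the libraries numbered 1 left out, and from -1.497 to 0.022 on leaving out 1 library, with 0.0073 without Kit+ CD45+ anti-Dll4 replicate 1 and 0.022 without replicate 4.

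Counts over all genes moved more. For anti-Dll4 in Kit+ CD45- cells, 0 genes became 79 with DESeq2, 67 with the libraries numbered 1 left out, and 0 to 23 on leaving out 1 library (23 without anti-Dll4 replicate 1, 12 without IgG replicate 2, 8 without IgG replicate 1). In Kit- CD41+ CD45- cells 0 became 2 with DESeq2, and in Kit+ CD45+ cells 1 became 13 with DESeq2 and 0 with limma-voom. For the difference, 2 became 33 with DESeq2, 29 with the libraries numbered 1 left out, 0 with limma-voom, without the filter or with only the groups compared, and 1 to 14 on leaving out 1 library. Under the globin covariate 4357 and 4672 calls between Kit+ CD45- and Kit- CD41+ CD45- cells (IgG, anti-Dll4) became 2310 and 2857, 2998 and 4560 between the Kit+ populations became 0 and 0, and 5815 and 5875 for Kit+ CD45+ against Kit- CD41+ CD45- cells became 15 and 6. Upper-quartile scaling moved the genes called higher from 1564 of 2998 to 1228 of 2935 between the Kit+ populations under IgG, from 2590 of 4560 to 2086 of 4511 under anti-Dll4, and from 2291 of 4672 to 3147 of 5133 for Kit+ CD45- against Kit- CD41+ CD45- cells under anti-Dll4. It moved the median of all genes in the last from 0.07 to 0.21.

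Whether the replicate numbers mark a shared litter or day is not in the labels, and not every same-numbered pair had a correlation of deviations over 0.1: under 1 antibody 6 of 24 did, across antibodies 2 of 36. As a hint from the data, 16 of the 24 correlated best with their own number, against 5 of 36 across antibodies. Each was ranked among the 4 libraries of the other group. In the column names, libraries of the same antibody and number share their leading digit, whose meaning is not given. With a replicate block, 0 members were called for the antibody in each population and for the difference (Gp1ba 3.71, adjusted p = 0.449; Gp1bb 3.67, adjusted p = 0.342), and 5, 5 and 5 under IgG and 5, 3 and 5 under anti-Dll4 between populations, as without the block. A replicate block within each antibody was fitted for the difference and between populations, but not for the antibody in each population. It gave the same counts of members there (difference for Gp1ba 3.46, adjusted p = 0.609, and for Gp1bb 3.82, adjusted p = 0.387). Within groups, Gp1ba correlated at -0.023 with Gp1bb and -0.170 with Treml1 without Kit+ CD45- IgG replicate 1, and at 0.675 and 0.447 without Kit+ CD45+ IgG replicate 1 (0.22 and 0.05 over all libraries). Depth limits the Kit+ CD45+ IgG values most, where members had 0 to 116 counts per library.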
